A study of Mus musculus with 2 samples.

Results

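Ribosome biogenesis factors build the ribosome in the nucleolus. RNA polymerase I transcribes the ribosomal DNA there, box C/D particles methylate the transcript and box H/ACA particles convert chosen uridines to pseudouridine. Separate assemblies of processing proteins and helicases then cut and fold the precursors of the small (40S) and large (60S) subunits. Many of these genes are textbook targets of the MYC transcription factor, and prominent nucleoli are a familiar feature of liver cancer cells. The 36 genes described here are a list given by symbol, whose rule uses no measured level although it was drawn up with earlier results of these data known. All 36 matched 1 of the 55450 genes counted in both libraries. By role they comprise 3 nucleolar organisers (Npm1, Ncl, Nolc1), the polymerase subunit gene Polr1b, 3 box C/D genes (Fbl, Nop56, Nop58) and 3 box H/ACA genes (Dkc1, Gar1, Nhp2). Another 10 act on the small subunit, 3 form the PeBoW complex (Pes1, Bop1, Wdr12), 12 act in 60S assembly, and Ddx21 encodes an RNA helicase linked to both RNA polymerase I and II transcription.

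The study profiled tumours of 2 mouse liver cancer models by droplet-based 3′ single-cell RNA sequencing, with 1 library per model. In both models C57BL/6 mice received plasmids by hydrodynamic tail vein injection, a rapid large-volume injection that carries naked DNA into hepatocytes, and a Sleeping Beauty transposase plasmid to insert the oncogenes into the genome. NRAS.MYC.ND (F1) mice received 19 µg of human N-Ras, 1 µg of human c-Myc and 2 µg of transposase plasmid, whereas AKT1.MYC (F3) mice received 10 µg of Akt1, 10 µg of human c-Myc and 5 µg of transposase plasmid. Both models thus carried human c-Myc, at different plasmid doses, and tumours were taken at 14 weeks, dissociated enzymatically and depleted of dead cells. The labels do not say what ND stands for, which promoters drove the constructs, the age of the mice or how many mice gave each library, and no uninjected liver was analysed here. There was therefore no replicate and no test, and every interval given is a 95% interval that covers counting error only. Model, library, dose and dissociation cannot be told apart.

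After filtering, 5634 cells of NRAS.MYC.ND and 9398 cells of AKT1.MYC remained, with median depths of 4240 and 1987 unique molecular identifiers (UMIs, counted molecules) per cell. Cells were assigned to types by marker genes that hold no member of the list, and 17.7% and 39.5% of cells were left without a type. The libraries shared 17 barcodes, of which 13 were kept. The epithelial gate, which holds malignant and normal cells without telling them apart, took 433 cells in NRAS.MYC.ND and 1442 cells in AKT1.MYC. Hepatocyte markers led in 323 and 362 of these cells and bile-duct markers in 90 and 1005. The cells led by hepatocyte markers are named by that rule alone, since in NRAS.MYC.ND the top 10 genes by fold of these cells held 0 hepatocyte markers and 1 of the duct list, Sox9. Epithelial Nras was at 1398 CPM (UMIs of a gene per 1000000 UMIs of the summed cells) in NRAS.MYC.ND against 71.0 CPM in AKT1.MYC. Epithelial Akt1 was at 59.8 against 254 CPM, so both targeted genes followed the labels. Myc was at 138 CPM in NRAS.MYC.ND and 113 CPM in AKT1.MYC, a log2 ratio of -0.29 (-0.40 to -0.17). Human construct RNA entered these mouse gene counts only as far as its reads aligned.

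Promoter sequence was examined because the E-box CACGTG is the classical binding site of MYC with its partner MAX. RefSeq windows on GRCm38.p6, from 250 bases before to 50 after the start, were matched for 31 of the 36 members (none for Npm1, Fbl, Rrp12, Bop1 and Rrs1). CACGTG, which is its own reverse complement, stood in a window of 7 of the 31 genes (22.6%), against 2187 of 27025 genes in the whole table (8.09%) and 17 of 83 other ribosome biogenesis genes (20.5%). Some genes have several windows: counted by window, the shares were 7 of 34 (20.6%), 2349 of 32851 (7.15%) and 20 of 93 (21.5%). The variant CACGCG, searched on both strands, stood in a window of 8 of the 31 genes (25.8%), against 10.5% of all genes and 32.5% of the other biogenesis genes. No stretch of bases counts as both motifs, and a match describes the letters only, not a bound site. The E-boxes of the 7 members are shown, 5′ to 3′ on the strand of the gene, with CACGTG in capitals:
Nle1: tcggttctcctcCACGTGgggacgcaggat
Nop2: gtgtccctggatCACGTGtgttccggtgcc
Pes1: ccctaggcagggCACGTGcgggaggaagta
Pno1: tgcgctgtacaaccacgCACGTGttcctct
Tsr1: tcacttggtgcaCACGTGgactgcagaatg
Utp20: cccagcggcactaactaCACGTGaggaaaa
Wdr43: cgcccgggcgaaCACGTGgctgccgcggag
In 6 of them the motif lies just downstream of the start, from 3 bases after it in Pes1 to 38 bases after it in Pno1 and Utp20. In Nop2 it lies 60 bases before the start. The large subunit genes shown are Nle1 at chr11:82908355-82908384 on the minus strand, Nop2 at chr6:125131811-125131840 on the plus strand and Pes1 at chr11:3963965-3963994 on the plus strand. The small subunit genes are Pno1 at chr11:17211540-17211569 (minus), Tsr1 at chr11:74898092-74898121 (plus), Utp20 at chr10:88826765-88826794 (minus) and Wdr43 at chr17:71616220-71616249 (plus).

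The members lie on 17 chromosomes, and none shares its strand with an overlapping protein-coding gene in the GENCODE vM21 annotation of GRCm38. A feature they share beyond function is that many host small nucleolar RNAs, the guide RNAs of the modification particles, in their introns. A snoRNA gene lay within the gene and on its strand for 8 of the 36 (22.2%), namely Nop58, Ncl, Nop56, Ppan, Tsr1, Gnl3, Wdr43 and Dkc1. Over all protein-coding genes this held for 259 of 21951 (1.18%).

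In the epithelial cells, ribosome biogenesis genes stood higher in AKT1.MYC than in NRAS.MYC.ND almost across the list. Summed over the 36 genes, the level was 2402 CPM (2362 to 2443) in NRAS.MYC.ND and 3769 CPM (3747 to 3791) in AKT1.MYC, which is 1.57-fold higher (1.54 to 1.60). All 36 were measured, meaning at least 20 UMIs over both libraries, and all 36 had a point ratio above 1 when scaled to total UMIs. Scaling by the median of ratios instead left 33 of 36 above 1, with Ddx10, Utp20 and Ddx21 turning below it. The median log2 ratio of the members was 0.67, against 0.17 over all 15264 genes measured, of which 58.3% were above 1. The interval of the log2 ratio lay above 0 for 31 members, where it did so for 37% of all measured genes, and spanned 0 for Polr1b, Utp20, Ddx10, Nle1 and Ddx21. Genes with more UMIs have narrower intervals, and the members and all genes were not matched on UMIs.

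At the 2-fold mark, 7 of the 36 members were higher in AKT1.MYC and 0 were lower, where 15.1% of all measured genes were at least 2-fold higher and 13.1% at least 2-fold lower. The members' 7 of 36 thus lies near the background share of higher genes, and the list differs from all genes more in its median than in its number of large changes. The count fell to 2 with scaling by the median of ratios, where 12.5% of all genes were at 2-fold, and the medians of all genes and of the members became 0.01 and 0.51. At a limit of 1.5-fold 22 members were higher, where 28.3% of all genes were.

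**Figure D1:**
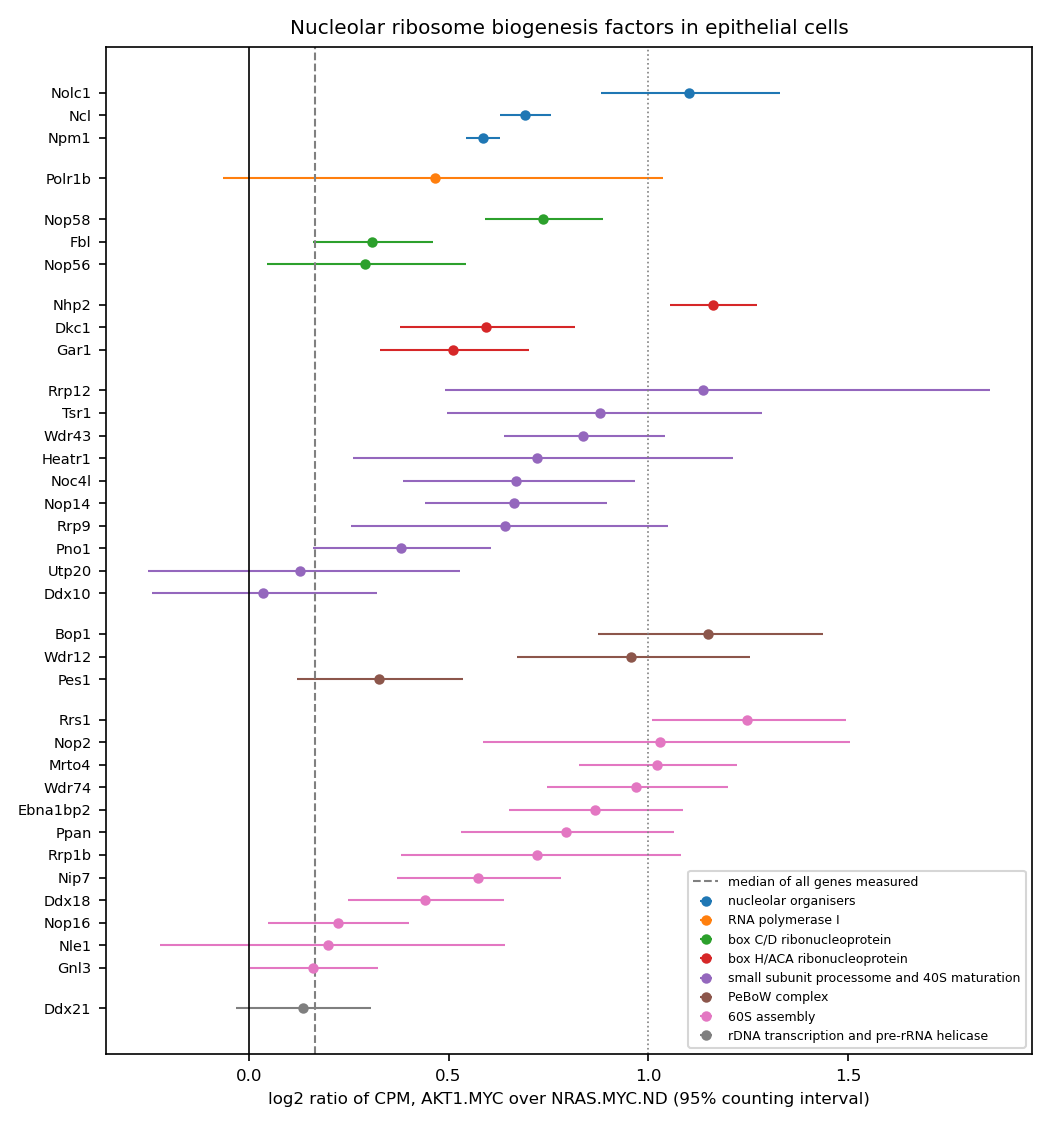
Log2 ratio of each member in epithelial cells, AKT1.MYC over NRAS.MYC.ND, with its 95% counting interval, grouped by role. The 36 points run from 0.03 for Ddx10 to 1.25 for Rrs1, and the median of all genes is 0.17.

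Among the organisers, Npm1 (chr11:33152287-33163206, minus strand) encodes nucleophosmin, an abundant chaperone of the granular nucleolus. It had 4960 UMIs in NRAS.MYC.ND, at 867 CPM (843 to 892), and 38549 UMIs in AKT1.MYC, at 1301 CPM (1288 to 1314). Its log2 ratio was 0.59 (0.54 to 0.63), and the levels do not overlap. Ncl (chr1:86344719-86359400, minus strand) encodes nucleolin, which binds nascent ribosomal RNA. It stood at 395 CPM (379 to 411) and 637 CPM (628 to 647), a log2 ratio of 0.69 (0.63 to 0.75). Nolc1 (chr19:46075863-46085530, plus strand) encodes a phosphoprotein that gathers both classes of modification particle. It went from 31.6 CPM (27.2 to 36.6) on 181 UMIs in NRAS.MYC.ND to 67.9 CPM (64.9 to 70.9) on 2011 UMIs in AKT1.MYC, the largest difference of the 3, at a log2 ratio of 1.10 (0.88 to 1.33). Npm1 and Ncl together gave 52.5% of the members' epithelial UMIs in NRAS.MYC.ND against 51.4% in AKT1.MYC, so they carry much of the summed level. Without them the sum was 1141 against 1831 CPM. Polr1b, the gene of the second largest subunit of RNA polymerase I, was sparse, with 33 and 236 UMIs, and its levels of 5.77 CPM (3.97 to 8.10) and 7.96 CPM (6.98 to 9.05) overlap.

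The modification particles differed within themselves. Nhp2 (chr11:51619735-51623714, plus strand), a core protein of the H/ACA particle, had 760 UMIs in NRAS.MYC.ND, at 133 CPM (124 to 143), and 8808 UMIs in AKT1.MYC, at 297 CPM (291 to 304). Its log2 ratio of 1.16 (1.05 to 1.27) was more than 2-fold over its whole interval. Dkc1, the pseudouridine synthase of the same particle, was at 34.1 and 51.5 CPM, a log2 ratio of 0.59 (0.38 to 0.82). Gar1, another core protein, had 271 and 2002 UMIs, at 47.4 CPM (41.9 to 53.4) and 67.6 CPM (64.6 to 70.6). Its log2 ratio was 0.51 (0.33 to 0.70), so neither interval reaches that of Nhp2. In the box C/D particle, the core gene Nop58 had the largest log2 ratio, 0.74 (0.59 to 0.89), with 415 UMIs at 72.5 CPM (65.7 to 79.9) and 3583 UMIs at 121 CPM (117 to 125). The methyltransferase gene Fbl was at 72.9 and 90.3 CPM, with a log2 ratio of 0.31 (0.16 to 0.46). Nop56, the partner of Nop58, had 157 and 995 UMIs, at 27.4 CPM (23.3 to 32.1) and 33.6 CPM (31.5 to 35.7), and a log2 ratio of 0.29 (0.05 to 0.54). The intervals of Fbl and Nop56 overlap each other and not that of Nop58.

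Of the 10 genes that act on the small subunit, 8 had an interval above 0, the rule that 37% of all genes met, and their median log2 ratio was 0.67. Rrp12 (chr19:41862851-41896173, minus strand), whose product takes part in late maturation and export of the subunits, had the highest log2 ratio of them, 1.14. It rested on 21 and 239 UMIs, at 3.67 CPM (2.27 to 5.61) and 8.07 CPM (7.07 to 9.15), and its interval ran from 0.49 to 1.85. Tsr1, a GTPase-like factor of late 40S maturation, was at 10.7 and 19.6 CPM, a log2 ratio of 0.88 (0.50 to 1.28). Wdr43, a subunit of the early small subunit processome, had 227 and 2100 UMIs, at 39.7 CPM (34.7 to 45.2) and 70.9 CPM (67.9 to 74.0), a log2 ratio of 0.84 (0.64 to 1.04). Heatr1, Noc4l, Nop14 and Rrp9, all processome components, lay close together, at log2 ratios of 0.72, 0.67, 0.66 and 0.64. Pno1, which stays on the pre-40S particle into the cytoplasm, had a lower log2 ratio, 0.38 (0.16 to 0.61). The processome scaffold gene Utp20 and the helicase gene Ddx10 did not differ beyond counting error. Utp20 was at 11.5 and 12.6 CPM, and Ddx10, with 127 and 674 UMIs, was at 22.2 CPM (18.5 to 26.4) and 22.7 CPM (21.1 to 24.5). Their log2 ratios of 0.13 (-0.25 to 0.53) and 0.03 (-0.24 to 0.32) allow a modest difference in either direction.

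For the large subunit, the PeBoW complex showed an uneven pattern, although its proteins act as 1 unit in processing of the 60S precursor. Bop1 (chr15:76452989-76477277, minus strand) had 115 and 1321 UMIs and was at 20.1 CPM (16.6 to 24.1) in NRAS.MYC.ND and 44.6 CPM (42.2 to 47.1) in AKT1.MYC, a log2 ratio of 1.15 (0.87 to 1.44). Wdr12 was at 19.1 and 37.0 CPM, a log2 ratio of 0.96 (0.67 to 1.25). Pes1, with 224 and 1454 UMIs, was at 39.2 CPM (34.2 to 44.6) and 49.1 CPM (46.6 to 51.7), a log2 ratio of 0.33 (0.12 to 0.53) whose interval does not reach those of its partners. Among the 12 genes of 60S assembly, Rrs1 (chr1:9545408-9547455, plus strand), which helps bring the 5S particle into the pre-60S subunit, had the highest log2 ratio of the whole list. It had 154 and 1894 UMIs and was at 26.9 CPM (22.8 to 31.5) and 63.9 CPM (61.1 to 66.9), a log2 ratio of 1.25 (1.01 to 1.49). Nop2 (chr6:125131909-125144753, plus strand), a ribosomal RNA cytosine methyltransferase gene, was at 7.87 CPM (5.74 to 10.5) and 16.1 CPM (14.7 to 17.6), a log2 ratio of 1.03 (0.59 to 1.5). Mrto4 (chr4:139347435-139352576, minus strand) holds the place of the ribosomal stalk on the precursor. It had 230 and 2418 UMIs and was at 40.2 CPM (35.2 to 45.8) and 81.6 CPM (78.4 to 84.9), a log2 ratio of 1.02 (0.83 to 1.22). The annotation names copies of it as Mrto4-ps1 and Mrto4-ps2, and how reads shared with them were counted is not given, so its level is uncertain to that extent.

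The remaining 60S genes were spread between these and no difference. Wdr74, Ebna1bp2 and Ppan, all early 60S factors, had log2 ratios of 0.97, 0.87 and 0.79. Rrp1b, Nip7 and the helicase gene Ddx18 followed at 0.72, 0.57 and 0.44. Nop16 was at 0.22 (0.05 to 0.40), and Gnl3, the nucleostemin GTPase gene, at 0.16 (0.00 to 0.32). Gnl3 had 372 and 2156 UMIs, at 65.0 CPM (58.6 to 72.0) and 72.8 CPM (69.7 to 75.9). Nle1, the gene of the release factor Notchless, was at 9.44 and 10.8 CPM, a log2 ratio of 0.20 (-0.22 to 0.64). Ddx21, the helicase linked to transcription by both polymerases, had 340 and 1934 UMIs, at 59.4 CPM (53.3 to 66.1) and 65.3 CPM (62.4 to 68.2), which overlap. The median log2 ratio by role was 0.96 for PeBoW, 0.76 for the 60S group, 0.69 for the organisers, 0.59 for H/ACA and 0.31 for C/D.

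The 7 members with CACGTG in the window had a median epithelial log2 ratio of 0.38 (0.13 to 1.03, the lowest and highest), and the 24 members without it a median of 0.67 (0.03 to 1.16). The ranges overlap, and the E-box genes Nop2 and Utp20, at 1.03 and 0.13, show how far apart genes with the motif stood.

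The difference was present within each kind of epithelial cell, although the libraries held them in unequal numbers. In hepatocyte-marker cells the members summed to 2411 CPM (2361 to 2463) in NRAS.MYC.ND and 3843 CPM (3790 to 3897) in AKT1.MYC, 1.59-fold higher (1.55 to 1.63). In duct-marker cells the sums were 2421 CPM (2341 to 2502) and 3766 CPM (3741 to 3791), 1.56-fold higher (1.5 to 1.61). Within a library the 2 kinds thus had overlapping intervals.

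In the hepatocyte-marker cells 34 of 36 members had a ratio above 1, where 65.5% of all measured genes did. The members' median log2 ratio was 0.77 against 0.33 for all genes, and 12 were at least 2-fold higher, where 21% of all genes were. Nop2 went from 6.40 to 17.7 CPM, a log2 ratio of 1.47 (0.80 to 2.20), on 23 and 92 UMIs. Bop1, Nolc1 and Nhp2 followed at 1.29, 1.28 and 1.28, and Nhp2 went from 139 to 338 CPM. The other members at 2-fold were Rrp12, Rrs1, Mrto4, Noc4l, Wdr74, Tsr1, Polr1b and Ebna1bp2, at log2 ratios from 1.01 to 1.24. Utp20 at -0.11 (-0.72 to 0.50) and Nle1 at -0.01 (-0.64 to 0.64) were the members below 1.

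In the duct-marker cells 32 of 36 members were above 1, where 40.6% of all genes were. The members' median log2 ratio was 0.44 against -0.17 for all genes. There 4 members were at least 2-fold higher, where 7.98% of all measured genes were. Nhp2 went from 112 to 286 CPM, a log2 ratio of 1.36 (1.13 to 1.59). Rrs1 went from 27.6 to 64.9 CPM, Mrto4 from 37.3 to 81.0 CPM and Wdr12 from 17.3 to 37.3 CPM. Ddx10 was the lowest, at a log2 ratio of -0.40 (-0.85 to 0.08). Nhp2, Rrs1 and Mrto4 were at 2-fold in both kinds of epithelial cell, and Npm1 differed more in duct-marker cells, 0.87 (0.78 to 0.96), than in hepatocyte-marker cells, 0.46 (0.40 to 0.52).

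Several measures of RNA content moved with the libraries in the epithelial cells. Malat1, a nuclear long noncoding RNA often read as a sign of the nuclear share of RNA, was at 28732 CPM in NRAS.MYC.ND and 13916 CPM in AKT1.MYC. The mitochondrial share was 3.29% and 1.97%, and median depth was 7902 and 17235 UMIs per cell. Albumin was at 15614 and 549 CPM and the duct gene Spp1 at 11453 and 25898 CPM. In the bins of Malat1 share with at least 50 cells of both libraries, the members were higher in AKT1.MYC. Below 0.5% Malat1 they summed to 3454 CPM in 149 cells and 4247 CPM in 519 cells. The bins do not match the cells closely: in this one Malat1 was at 1378 and 2261 CPM and median depth was 2909 and 13661 UMIs. The part of RNA content in the difference was not tested. From 2 to 4% the sums were 2175 and 3057 CPM, and from 4% up they were 1964 and 2551 CPM. The lowest sum of each library was thus in the cells with the highest Malat1 share, and among cells with 1 to 4% Malat1 the members at 2-fold numbered 2 instead of 7, where 11.9% of all genes were at 2-fold. Split by depth, cells with at least 10000 UMIs held 2402 and 3827 CPM, those from 2000 to below 10000 UMIs held 2327 and 3028 CPM, and those below 2000 UMIs held 3023 and 3616 CPM. NRAS.MYC.ND was lower in each split that both libraries filled. Below 2000 UMIs, however, the intervals overlap, at 2698 to 3376 CPM in NRAS.MYC.ND and 3347 to 3901 CPM in AKT1.MYC.

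**Figure D2:**
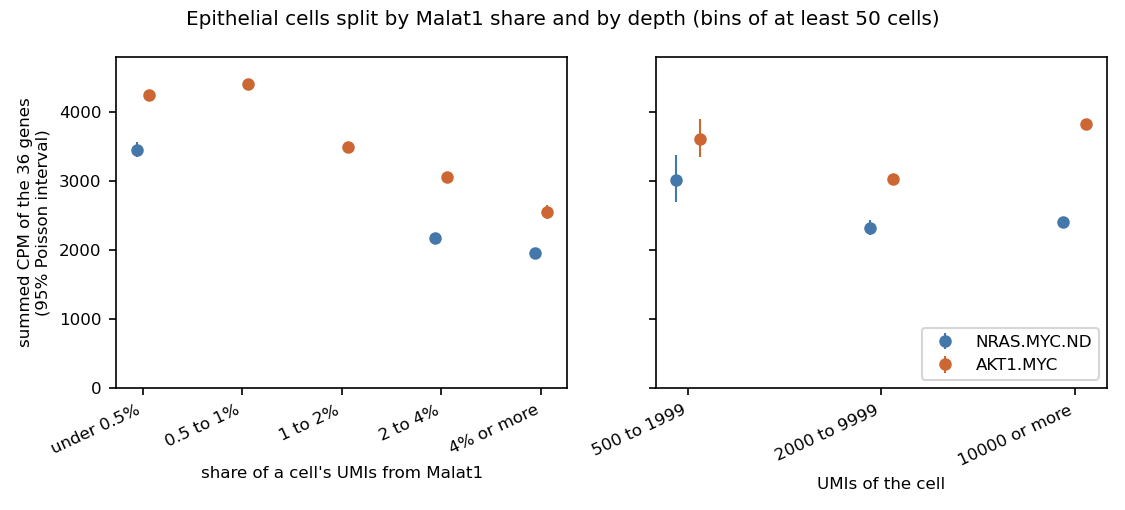
Summed member level (CPM) in epithelial cells of each library, split by Malat1 share and by depth, in bins of at least 50 cells, with 95% counting intervals. AKT1.MYC lies above NRAS.MYC.ND in every split drawn for both, for example at 3827 against 2402 CPM in cells with at least 10000 UMIs. Below 2000 UMIs the intervals overlap.

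The level also varied among epithelial cells of 1 library. In cells with at least 1000 UMIs, the median per cell was 22.0 member UMIs per 10000 in NRAS.MYC.ND, and the central range between the 10th and 90th percentiles was 10.1 to 44.1. In AKT1.MYC the median was 30.8 and the same range 19.0 to 53.5, so most cells of the libraries overlap. The 2 epithelial clusters of NRAS.MYC.ND stood apart. Cluster 11, with 124 cells, held 3784 CPM of the members, with Malat1 at 2709 CPM and a mitochondrial share of 0.51%. Cluster 9, with 225 cells, held 2202 CPM, with Malat1 at 32464 CPM and a mitochondrial share of 3.79%. Members were not left out of the choice of variable genes behind the clusters. In AKT1.MYC, 156 cells of the same cluster 9 held 4389 CPM, and 69 cells of cluster 31 held the least, 2559 CPM. Cluster 27 of that library held 4179 CPM in 100 cells, with Malat1 at 1802 CPM and a mitochondrial share of 0.64%. Cluster 31 also stood apart in RNA content, with Malat1 at 89186 CPM and a mitochondrial share of 6.25%, against 13095 CPM and 1.99% in the 812 cells of cluster 24, which held 3746 CPM of the members. In these libraries the range among clusters of 1 library thus exceeds the difference between the libraries.

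Other genes of the pathway were compared in the same cells. Of 100 further ribosome biogenesis genes, 81 were above 1 in AKT1.MYC, where 58.3% of all measured genes were. The list's median log2 ratio was 0.39, against 0.17 for all genes. At 2-fold, 8 were higher and 1 was lower, a smaller share than the 15.1% and 13.1% of all genes. Pinx1, a nucleolar inhibitor of telomerase, went from 10.5 to 28.8 CPM, a log2 ratio of 1.45, and Bysl, a 40S maturation factor, from 9.27 to 23.1 CPM, a log2 ratio of 1.31. Wdr75, Ltv1 and Rrp7a, all of the 40S pathway, had log2 ratios of 1.09, 1.06 and 1.04. Rcl1, a processome protein gene, went the other way, from 180 to 35.9 CPM, a log2 ratio of -2.33. Of 17 genes of the RNA polymerase I machinery, 16 were above 1 and 3 were at least 2-fold higher, near the 15.1% of all genes. Polr1e went from 4.55 to 14.5 CPM, a log2 ratio of 1.67, and Znrd1 and Cd3eap, further polymerase I subunit genes, had log2 ratios of 1.16 and 1.03.

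The MYC-linked lists did not move as 1 group. Over all genes measured, 58.3% were above 1, 15.1% were at least 2-fold higher and 13.1% at least 2-fold lower. Of 12 genes of the MYC and MAX network, 4 were above 1, with a median log2 ratio of -0.36. At least 2-fold lower were 2 of them, near the share of all genes. The carbohydrate-response factor gene Mlxipl went from 59.8 to 7.02 CPM, a log2 ratio of -3.09, and Mycl, at -2.64, rested on 18 and 15 UMIs. Of 26 other textbook MYC target genes, 24 were above 1, with a median log2 ratio of 0.46. That list shares C1qbp with the further ribosome biogenesis genes above. Cdk4, a G1 kinase gene, Odc1, the first enzyme gene of polyamine synthesis, and Prmt1, an arginine methyltransferase gene, were at 1.20, 1.19 and 1.18. Nme2, a nucleoside diphosphate kinase gene, was at -1.10, although how reads shared with its close copy Nme1 were counted is not given. Of 12 p53 target genes 5 were above 1, with a median of -0.47, and Mdm2, which encodes the ubiquitin ligase of p53, was at -1.17, and Gtse1, a cell cycle regulator gene, at -1.84.

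Cell cycle genes did not follow the members between the libraries. Of 25 cell cycle genes 9 were above 1, where 58.3% of all genes were, with a median log2 ratio of -0.40. Mki67 was at 38.6 CPM in NRAS.MYC.ND and 23.6 CPM in AKT1.MYC, a log2 ratio of -0.71 (-0.93 to -0.49), and Top2a was at 34.8 and 26.9 CPM, a log2 ratio of -0.37 (-0.60 to -0.14). Cells with UMIs of at least 2 of the cell cycle genes, called cycling here, made up 24.5% of epithelial cells in NRAS.MYC.ND against 50.1% in AKT1.MYC. Once depth was equalised at 1000 UMIs per cell, the shares were 9.41% and 6.09%, so the unthinned order follows depth and no order was read from it.

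Within a library, cycling epithelial cells held more of the members than other epithelial cells. In NRAS.MYC.ND the sum was 2153 CPM in 327 other cells and 2852 CPM in 106 cycling cells, at median depths of 6987 and 16643 UMIs. The median log2 ratio was 0.35, with 32 of 36 members above 1. At 2-fold there were 2 members, where 3.97% of all measured genes were. Nolc1 went from 19.8 to 52.9 CPM, a log2 ratio of 1.42, and Dkc1 had a log2 ratio of 1.16. In the hepatocyte-marker cells of that library 5 of 34 measured members were at 2-fold, where 5.07% of all genes were, and the median was 0.61. Nolc1 went from 12.5 to 61.3 CPM there, a log2 ratio of 2.29, followed by Wdr12 at 1.53, Dkc1 at 1.35, Nop56 at 1.28 and Tsr1 at 1.10.

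In AKT1.MYC the epithelial sum was 2984 CPM in 720 other cells and 4100 CPM in 722 cycling cells, at median depths of 8425.5 and 27970.5 UMIs. Of 36 members 0 reached 2-fold, where 2.33% of all genes did, and 35 were above 1, where 43.2% of all genes were. The median log2 ratio was 0.31. This median was 0.85 with cells thinned to 1000 UMIs and 0.11 among cells with 1 to 4% Malat1, and the cause of these shifts was not tested. In the hepatocyte-marker cells the median was 0.52 and 3 members were at 2-fold, where 2.82% of all genes were: Rrp9 at 1.14, Heatr1 at 1.10 and Nop58 at 1.04. In the duct-marker cells the median was 0.27, or 0.10 among cells with 1 to 4% Malat1, and 0 of 36 were at 2-fold, where 2.28% of all genes were.

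Outside the epithelium the median was above 0 in each type compared, but small in some and not stable over the settings. In T cells of NRAS.MYC.ND the members summed to 2274 CPM in other cells and 3561 CPM in cycling cells. The median log2 ratio there was 0.54, and 4 of 34 measured members were at 2-fold, where 7.15% of all genes were. These were Nop2 at 1.63, Nop16 at 1.57, Nop58 at 1.18 and Nhp2 at 1.03. The T cell median was 0.33 with thinned cells and 0.10 among cells with 1 to 4% Malat1. In mononuclear phagocytes of NRAS.MYC.ND the median was 0.24 and Nop58, at 1.11, was the 1 member at 2-fold, where 3.87% of all genes were. In those of AKT1.MYC it was 0.03, with 2032 and 2171 CPM at median depths of 3398 and 7851 UMIs, and 0 members reached 2-fold, where 2.59% of genes did. It was 0.40 there with thinned cells, so no order of the cell types was read from these medians. In endothelial cells the median was 0.21 in NRAS.MYC.ND, with 0 members at 2-fold against 3.05% of genes. It was 0.37 in AKT1.MYC, or 0.14 with equal weight per cell, with Rrp12 at 1.35 and Nolc1 at 1.01 at 2-fold, against 3.51% of genes. In the fibroblast, stellate or mural cells of AKT1.MYC the median was 0.17, or -0.03 with equal weight per cell, and Polr1b, at 1.41, was the 1 member at 2-fold, where 2.25% of genes were.

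**Figure D3:**
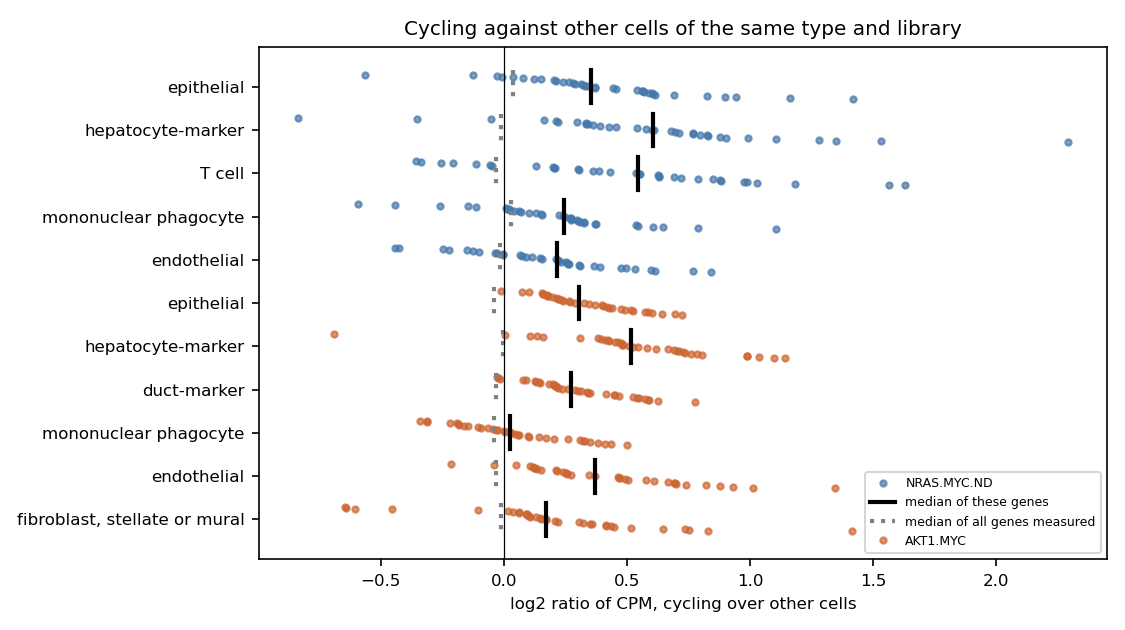
Log2 ratio of the members in cycling over other cells of the same library, by cell type, 1 point per gene, with the median of the members and of all genes marked. The medians run from 0.03 in phagocytes of AKT1.MYC to 0.61 in hepatocyte-marker cells of NRAS.MYC.ND.

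Across cell types of NRAS.MYC.ND the summed level was highest in T cells, at 2604 CPM (2557 to 2652). Duct-marker and hepatocyte-marker cells followed at 2421 and 2411 CPM, with conventional dendritic cells at 2354, B cells at 2252, NK and innate lymphoid cells at 2105, fibroblast, stellate or mural cells at 2083 and plasmacytoid dendritic cells at 2035 CPM, where neighbours overlap. Endothelial cells, at 1678 CPM (1649 to 1707), and phagocytes, at 1605 CPM (1583 to 1628), lay below these. Erythroid cells held 705 CPM (640 to 774) and neutrophils, short-lived cells with condensed nuclei, held 377 CPM (328 to 432), below all other types. In AKT1.MYC, among types with at least 50 cells, the 2 kinds of epithelial cell were highest, and T cells lay next, at 3393 CPM (3163 to 3635). Types with fewer cells were left out of this order, such as 19 NK and innate lymphoid cells at 4147 CPM (3799 to 4519). Endothelial cells at 2615 CPM, erythroid cells at 2383 CPM and fibroblast, stellate or mural cells at 2303 CPM overlap as neighbours. Phagocytes held 2070 CPM (2045 to 2096) and neutrophils 1535 CPM (1468 to 1604). Neutrophils were thus lowest in both libraries. Among types with at least 50 cells, 21 of the 36 members were lowest in them in each. The share of all genes lowest in neutrophils was not counted, and those of NRAS.MYC.ND held only 207 member UMIs. The 21 are therefore given without a background. Among the same types, Rrs1 was highest in the fibroblast, stellate or mural cells in both libraries, at 70.4 and 78.4 CPM.

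**Figure D4:**
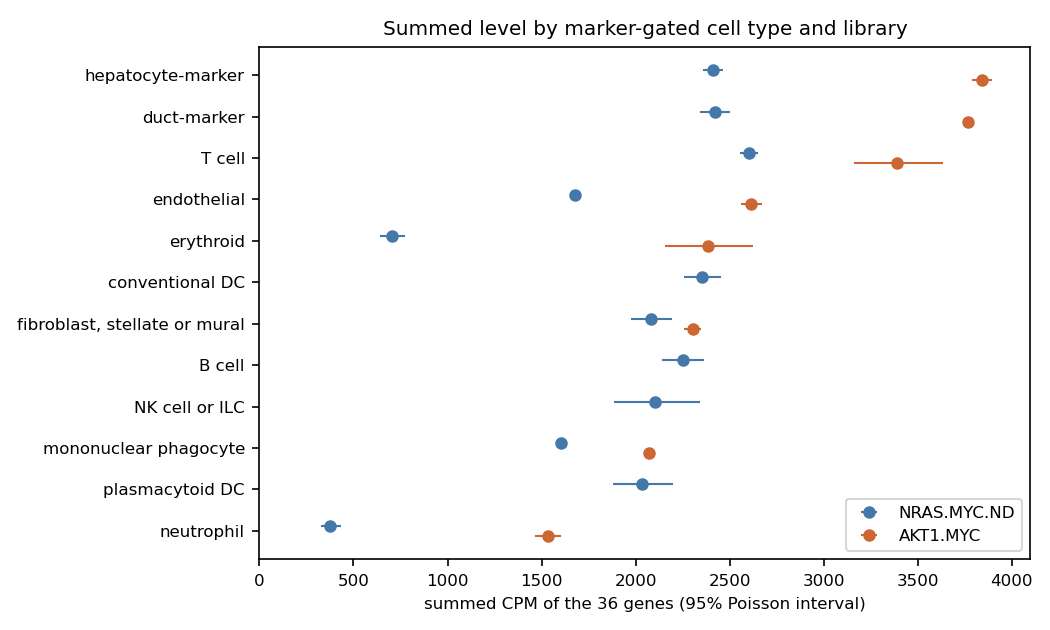
Summed level of the 36 members (CPM) in each gated cell type with at least 50 cells, by library, with 95% counting intervals. In both libraries neutrophils are lowest, at 377 and 1535 CPM.

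Epithelial cells were also set against the 3 other large populations of their own library. Against phagocytes the members' sum was 1.5-fold higher in NRAS.MYC.ND and 1.82-fold higher in AKT1.MYC. The median log2 ratio in NRAS.MYC.ND was 0.37, equal to that of all genes. Of 36 members 25 were above 1, where 63.1% of all genes were. There 4 members were at 2-fold, where 30.7% of all genes were: Utp20 at 1.26, Gar1 at 1.15, Npm1 at 1.13 and Nop58 at 1.11. In AKT1.MYC the median was 0.74 against 0.51 for all genes, and 36 of 36 were above 1, where 68.9% of all genes were. There 11 members were at 2-fold, where 33% of all genes were. Nop58 at 1.52, Rrs1 at 1.49, Gar1 at 1.46 and Nop16 at 1.38 led these. Both shares at 2-fold were at or below their background, and scaling by the median of ratios put the medians at 0.00 and 0.23.

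T cells, lymphocytes that hold high levels of these genes, were close to the epithelium. In NRAS.MYC.ND epithelial cells held 0.92 times the T cell sum, with a median log2 ratio of -0.30. Of 36 members 11 were above 1, where 52.8% of all genes were. Utp20 at 1.87 and Nop16 at 1.36 were at least 2-fold higher, where 30.1% of genes were, and Rrp1b at -1.38 and Wdr43 at -1.11 at least 2-fold lower, where 20.5% of genes were. In AKT1.MYC the epithelial sum was 1.11 times that of T cells. The median log2 ratio was 0.28, or -0.02 among cells with 1 to 4% Malat1. In the main comparison 22 of 36 members were above 1, where 43.5% of all genes were. There 5 members were at 2-fold, where 18.3% of genes were. Of these Nolc1 was at 1.43, Nhp2 at 1.19 and Mrto4 at 1.11, while Bop1 and Nle1 rested on 2 and 1 T cell UMIs.

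Against endothelial cells the members were higher in the epithelium of both libraries, by 1.43-fold and 1.44-fold in sum. In NRAS.MYC.ND the median log2 ratio was 0.37 against -0.23 for all genes, and 3 members were at 2-fold, where 20.2% of genes were. These were Npm1 at 1.07, Ppan at 1.07 and Nhp2 at 1.01. In AKT1.MYC the median was 0.57 against 0.07, and 36 of 36 were above 1, where 52.5% of all genes were. There Tsr1 at 1.17, Noc4l at 1.14, Nop58 at 1.09, Rrs1 at 1.02 and Bop1 at 1.00 were at 2-fold, where 21.5% of genes were.

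The higher level in AKT1.MYC was not limited to the epithelium in these libraries. The comparisons by cell type share the same 2 libraries, so they are given side by side and do not count as separate evidence. Endothelial cells held 1.56-fold more of the members in AKT1.MYC (1.52 to 1.60), phagocytes 1.29-fold more (1.27 to 1.31), T cells 1.30-fold more (1.21 to 1.40) and fibroblast, stellate or mural cells 1.11-fold more (1.05 to 1.17). Over all kept cells the members summed to 1923 and 3159 CPM.

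In endothelial cells, which line the tumour vessels, 31 of 36 members were above 1, where 42.4% of all genes were. The members' median log2 ratio was 0.32 against -0.12 for all genes. There 5 members were at 2-fold, where 8.19% of genes were. Nhp2 went from 66.0 to 173 CPM, a log2 ratio of 1.39 (1.21 to 1.56), and Npm1 from 414 to 857 CPM, a log2 ratio of 1.05 (0.97 to 1.12). Rrp12 at 1.26, Bop1 at 1.09 and Ppan at 1.06 completed them, whereas Fbl at -0.14, Wdr43 at -0.10 and Pes1 at -0.19 had intervals that spanned 0. The median was 0.25 after subtraction of estimated free RNA and 0.58 with thinned cells.

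In mononuclear phagocytes, which here hold macrophages and monocytes, 24 of 36 members were above 1, where 54.3% of all genes were. The median was 0.25 against 0.07, and 0 members were at 2-fold, where 14% of genes were. Nhp2 went from 84.5 to 158 CPM, a log2 ratio of 0.91 (0.79 to 1.02), Npm1 from 396 to 661 CPM and Ncl from 264 to 349 CPM. Fbl, Pno1 and Ddx21 were lower in AKT1.MYC with intervals below 0, where 25.4% of all genes had such an interval, at -0.40 (-0.52 to -0.28), -0.58 (-0.78 to -0.37) and -0.43 (-0.58 to -0.27). Members of the list thus went in both directions in these cells, and the median was 0.02 after subtraction of estimated free RNA.

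T cells were few in AKT1.MYC, 83 against 1209, so single genes were poorly resolved. Of 34 measured members 20 were above 1, where 47.5% of all genes were, with a median of 0.14 against -0.04. Gnl3 at 1.28 (207 and 27 UMIs), Wdr74 at 1.08 and Nop56 at 1.08 were at least 2-fold higher, where 13.1% of genes were. Nolc1 at -1.15 (248 and 6 UMIs) and Nle1 at -1.24 (44 and 1 UMIs) were at least 2-fold lower, where 13.8% of genes were. Npm1 went from 758 to 1363 CPM, a log2 ratio of 0.85 (0.68 to 1.01), while Ncl, at 415 and 436 CPM, had an interval that spanned 0. The median ran from 0.02 with a stricter marker gate to 0.37 with thinned cells, and was 0.09 after subtraction of estimated free RNA.

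In fibroblast, stellate or mural cells 18 of 35 measured members were above 1, where 42.8% of all genes were. The median of 0.00 lay near the -0.14 of all genes. There 3 members were at 2-fold, where 10.5% of genes were. Nhp2 went from 74.6 to 169 CPM, a log2 ratio of 1.18, while Heatr1 at 1.74 and Rrp9 at 1.16 rested on 2 and 4 UMIs in NRAS.MYC.ND. Estimated free RNA made up 25.9% and 42.4% of the UMIs of these cells, and the median was -0.49 once it was subtracted.

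Neutrophils and erythroid cells showed the largest ratios and the weakest footing. Neutrophils held 207 member UMIs in NRAS.MYC.ND against 1979 in AKT1.MYC, a sum 4.07-fold higher (3.52 to 4.72). Npm1 went from 60.2 to 475 CPM (33 and 613 UMIs), a log2 ratio of 2.98 (2.48 to 3.53), and Nhp2 from 14.6 to 112 CPM on 8 and 144 UMIs. Ncl went from 89.3 to 284 CPM. Of the 36 members 23 were measured, mostly through their UMIs in AKT1.MYC, so the 19 of them at 2-fold, where 33.8% of genes were, are given as a description only. Markers of other cells moved with this result. The 13 duct markers summed to 259 CPM in the neutrophils of NRAS.MYC.ND, with Krt7, Krt19, Cldn4 and Cdh1 at 0, and to 3697 CPM in those of AKT1.MYC, where 13 of 13 were detected. Spp1 went from 264 to 5143 CPM, and the 17 hepatocyte markers went from 7035 to 1573 CPM. Free RNA was estimated at 11.6% and 35.7% of neutrophil UMIs, and after its subtraction the median log2 ratio was 1.46 instead of 1.67, with 18 of 23 above 1.

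In erythroid cells 11 members were measured and 9 were at 2-fold, where 34.7% of genes were, and the sum was 3.38-fold higher in AKT1.MYC (2.95 to 3.88). Npm1 went from 170 to 762 CPM, a log2 ratio of 2.16. Mki67 was at 411 CPM in these cells of NRAS.MYC.ND and 57.7 CPM in those of AKT1.MYC. Cycling cells made up 53.8% and 6.72% at median depths of 5730 and 820 UMIs, and 23.7% of 76 cells and 10.6% of 47 cells with cells thinned to 1000 UMIs. Over the measured members the median was 1.26, or 1.64 after subtraction of free RNA, which was estimated at 18.9% and 49.0%. The duct markers summed to 97.9 and 10817 CPM.

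Duct markers were also higher in the other types of AKT1.MYC than of NRAS.MYC.ND. The duct markers summed to 143 and 2856 CPM in T cells, 88.9 and 2039 CPM in phagocytes, 288 and 1966 CPM in endothelial cells and 1527 and 2262 CPM in fibroblast, stellate or mural cells. The hepatocyte markers went the other way in these 4 types, for example from 5037 to 1145 CPM in T cells. Estimated free RNA was 14.9% and 28.5% in T cells, 8.44% and 19.2% in phagocytes and 18.4% and 24.7% in endothelial cells, against 7.63% and 18.8% in the epithelium. Beyond the medians after subtraction, its part in the differences outside the epithelium was not tested.

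Taking the 8 types with enough cells in both libraries, and counting the 2 kinds of epithelial cell apart, 10 members were measured in all 8. Npm1, Ncl, Nhp2 and the 60S factor Nip7 were higher in AKT1.MYC in all 8. Their log2 ratios ran from 0.08 to 2.98 for Npm1, 0.07 to 1.73 for Ncl, 0.38 to 2.94 for Nhp2 and 0.17 to 1.21 for Nip7. Nop56, Rrp9, Nop14, Wdr12, Rrs1 and Gnl3 were higher in every type in which they were measured. These are point ratios, and that of Ncl in T cells, 0.07, had an interval that spanned 0. In neutrophils genes were measured mostly through their UMIs in AKT1.MYC, which favours a higher ratio there. Rrs1, for example, was at 3.65 and 20.9 CPM in neutrophils. How many of all genes were higher in every type was not counted. Of all genes measured, 67.4% were above 1 in neutrophils and 63.2% in erythroid cells. The counts are thus a description only. At the other end, Ddx10 was higher in AKT1.MYC in 2 of 6 types and Pes1 in 3 of 7.

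**Figure D5:**
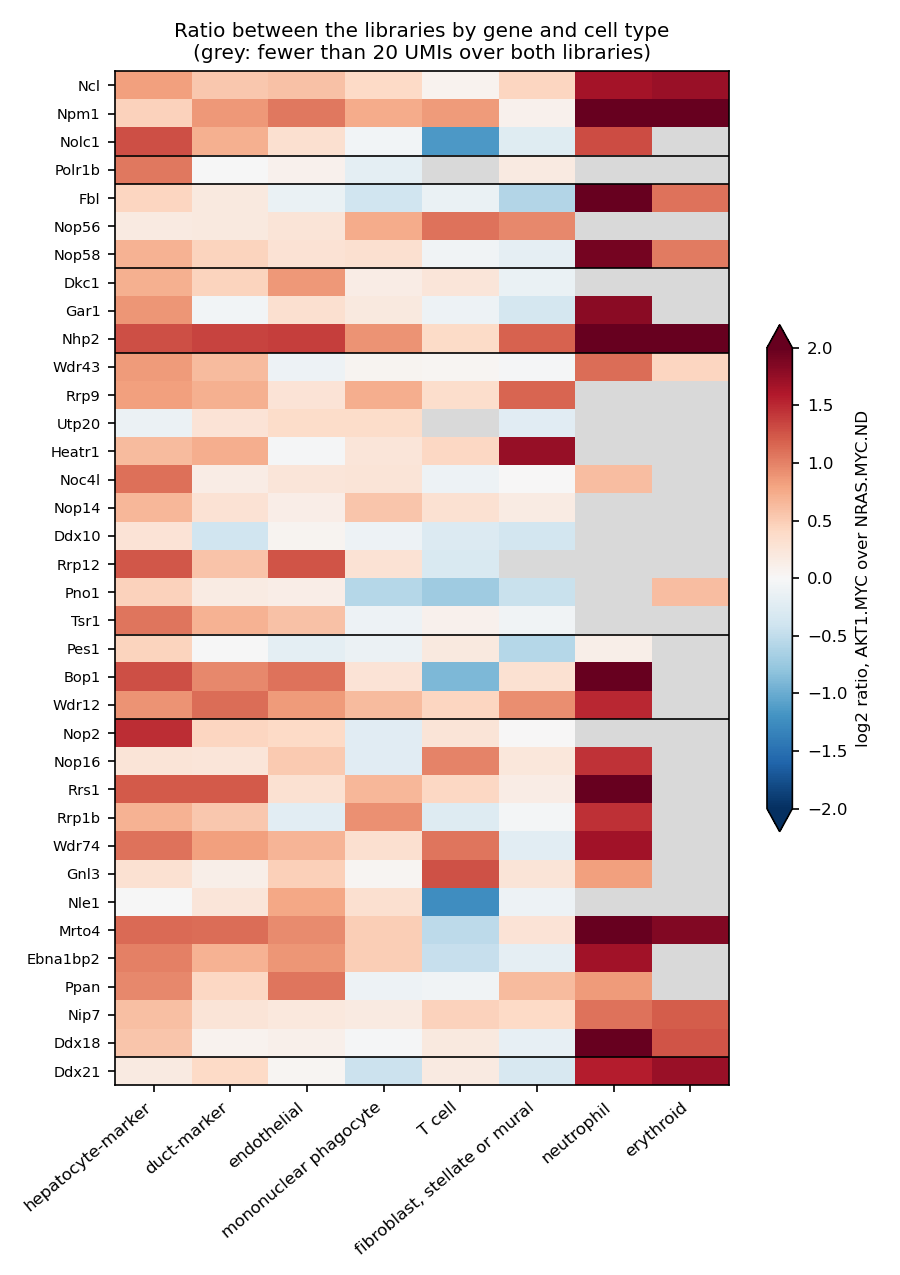
Log2 ratio of each member, AKT1.MYC over NRAS.MYC.ND, in each cell type, with grey fields where a gene was not measured. The row of Nhp2 is above 0 in all 8 types, while the row of Ddx10 is above 0 in 2 of 6.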

How the data were processed

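Single cells of dissociated mouse liver tumours were measured with 1 library per model. The authors deposited raw UMI counts per gene and barcode, made with Cell Ranger against mm10. The version is 6.1.1 per the file headers and 6.1.2 per the submitters' processing notes, with an annotation release not given in the sources used here. No column of another series' samples was present.

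Barcodes were kept from 500 UMIs and 250 genes up, unless mitochondrial UMIs exceeded 20%. Of 6312 and 10766 barcodes (42416125 and 64516171 UMIs) this removed 351 and 456. Scrublet in Scanpy 1.11.5 marked 0% of cells by its automatic threshold, below the 0.5% minimum, and so had not worked. The highest scores up to 0.8% per 1000 barcodes, 327 and 912 cells, were removed instead. Kept cells held 38004526 and 60289874 UMIs.

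A marker counted where its UMIs exceeded the level predicted by the mean profile of the library's kept cells (Poisson tail 0.05). A cell was assigned to a type with at least 3 such markers and at least 3 of their UMIs. That list also had to lead the next of 14 marker lists 1.25 times. No gated type had markers of another class among its top 10 genes, with the 2 epithelial lists counted as 1 class. UMIs were summed per type and library and given as CPM of that sum, with exact Poisson intervals. Ratios have exact conditional binomial intervals, at 95%. A gene counts as measured from 20 UMIs over both sides up, and each side had at least 50 cells. Counts of genes at 2-fold use the point ratio, so no test, p-value or adjustment was made. The floor for a count of 0 is 3 counts. Clusters used 2000 variable genes, 30 components and 15 neighbours.

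The members and lists were chosen with earlier results of these data known. In each role group, the members with the most UMIs and with the highest and lowest epithelial log2 ratio are given in full. Of each other list, up to 5 genes per direction at 2-fold or more with at least 30 UMIs are named, and always Myc, Mki67 and Top2a. The computation was tested on simulated counts with known ratios. Alternatives changed scaling, filters, gates, thinning and free RNA. The free RNA share was estimated from markers of other types against the mean profile of the library's kept cells, not from empty droplets.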

Additional observations from a re-analysis of the deposited data

Results flagged for a closer look

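Cells left without a type, which entered no comparison, also held the members. The summed level was 2092 CPM in the 1000 such cells of NRAS.MYC.ND and 3590 CPM in the 3715 of AKT1.MYC, both above the limit that a count of 0 allows. Split at 1000 UMIs, the shallower cells held 1695 and 3171 CPM and the deeper cells 2105 and 3669 CPM, so AKT1.MYC was higher in both. What these cells are was not tested.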

How the results depend on the processing

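No paired analysis was possible because each model had 1 library and no result came from a test, so no replicate could be left out either. The median epithelial log2 ratio between the libraries ran from 0.48 to 0.71 over its settings, and its difference from the median of all genes from 0.21 to 0.55. With cells thinned to 1000 UMIs, 28 of 31 measured members were above 1. The number at 2-fold, 7 as reported, was 2 with scaling by the median of ratios, 22 at a limit of 1.5-fold and 2 among cells with 1 to 4% Malat1, where 12.5%, 28.3% and 11.9% of all genes passed. The cycling difference in AKT1.MYC epithelial cells was 0.85 with thinned cells. Epithelial over phagocyte cells was 0.000203 with median of ratios scaling in NRAS.MYC.ND. In AKT1.MYC it was 0.23 with that scaling, 0.42 with upper quartile scaling and 0.94 with free RNA subtracted. The cause was not tested. In the main comparisons 208 further values of the medians stayed within an interval taken as the median of the single members' counting bounds. It is not an interval of the list's median, so the count does not show that each median was stable. Members at 2-fold between the libraries in epithelial and hepatocyte-marker cells kept their sign in every setting. Single genes of the other comparisons were not followed over the settings. Medians near 0 did change sign, namely that of fibroblast, stellate or mural cells between the libraries (-0.49 to 0.37), that of their cycling cells in AKT1.MYC (-0.03 with equal weight per cell) and that of AKT1.MYC epithelial over T cells (-0.02 among cells with 1 to 4% Malat1). The settings on Malat1 share and on totals without ribosomal protein, Malat1 or mitochondrial UMIs were chosen after seeing the data. Depth limits genes under about 20 UMIs, chiefly in neutrophil, erythroid and AKT1.MYC T cells.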
